A study of Arvicanthis niloticus with 28 samples.

Results

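Interferon-stimulated genes and the factors that switch them on were followed in the isolated retinal vasculature of the Nile rat (Arvicanthis niloticus), a diurnal rodent that develops diet-induced diabetes. The set was given by name and holds 9 genes, Stat2, Irf1, Irf7, Irf9, Isg15, Ifit2, Bst2, Dtx3l and Parp9. All 9 are among the 18970 genes in both the table of expected counts and the table of TPM (transcript abundance per length, summing to 1000000 in each library). Each was found in at least 13 of the 28 rats with more than 3 counts, and each passed the filter on low counts.

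Interferons are cytokines that bind receptors on the cell surface and activate Janus kinases, which phosphorylate STAT proteins. Type I interferon signaling brings STAT2 and IRF9 together in the complex ISGF3, which binds the promoters of interferon-stimulated genes. Endothelial cells are known to respond to interferons, and the products of the stimulated genes restrict viruses and present antigen. IRF1 and IRF7 are interferon regulatory factors that are themselves induced. ISG15 is a ubiquitin-like protein, IFIT2 binds viral RNA, and BST2 (tetherin) holds budding virus particles at the membrane. DTX3L is an E3 ubiquitin ligase that works as a complex with PARP9, and their genes lie next to each other in the RefSeq annotation of the Nile rat.

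Each library came from the whole retinal vasculature of 1 rat, and all rats were labelled wild-type (WT) with no treatment. The pre-dropout group held 4 male rats with an acellular capillary density of 17.1 to 17.9 counts per mm2, and their random blood glucose lay between 57.4 and 443 mg/dL. The normal group held 8 male and 16 female rats with densities of 5.90 to 14.5 counts per mm2 and glucose of 52.0 to 422 mg/dL. Per the study's methods, rats ate either a high-fiber or a high-caloric diet, the density was counted after trypsin digestion of the retina, and the vessels were freed from other retinal cells by osmotic lysis. Age and diet of the single rats are not in the labels. Because all pre-dropout rats were male, the density group and sex can be separated only through the normal males.

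Library totals ranged from 153111 to 10029207 counts (median 3781776), and 2 libraries held fewer than 1000000. In 5 libraries, all of the normal group (T399F, T420F, T424M, T425M and T430F), between 22.5% and 37.0% of the genes that should have given at least 30 counts gave 3 or fewer. In the other 23 libraries this share lay between 0.0289% and 15.4% (median 3.84%). The comparisons between rats and the co-variation of genes were also computed without those 5 libraries. The order by TPM, the ranks of rats, the permutation p-values, the relations with detected genes and the genes most like a member were not. As a check of the labelled tissue, 12 endothelial markers summed to 12406 to 55951 TPM in every rat, whereas 12 markers of microglia and macrophages summed to 0.977 to 159 TPM. Other retinal cells were not absent: 8 markers of Müller glia and astrocytes summed to 3342 to 14669 TPM and 9 rod photoreceptor markers to 124 to 5374 TPM. In bulk RNA of this kind, fewer cells of a type and less RNA per cell cannot be told apart.

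Per unit of transcript length, Bst2 was the most abundant of the 9 genes and Irf7 the least. The median TPM over the 28 rats was 309.8 for Bst2, 169.8 for Irf9 and 142 for Ifit2. It was 33.2 for Parp9, 27.4 for Dtx3l, 22.4 for Irf1 and 12.6 for Stat2. The 2 lowest were Isg15 with 6.28 and Irf7 with 0.928. The step between the 3 abundant genes and the rest was steady over rats, since Ifit2 exceeded Parp9 in 27 of 28. The other neighbours in this order were less clearly ranked. Bst2 exceeded Irf9 in 21 rats, Irf9 exceeded Ifit2 in 19, Parp9 exceeded Dtx3l in 21, Dtx3l exceeded Irf1 in 20 and Irf1 exceeded Stat2 in 23. Stat2 exceeded Isg15 in 16 of 28 rats and Isg15 exceeded Irf7 in 14 of 28, so the low end of the order did not hold within single rats. Of all genes tested, 97.4% had a lower median TPM than Bst2 and 20.1% a lower one than Irf7.

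Below, levels are CPM (counts scaled to a library of 1000000) scaled between libraries by the trimmed mean of M-values (TMM), so they follow one gene across rats and do not rank genes. Stat2, which encodes a subunit of ISGF3, was either present at a steady level or close to 0. In 24 rats it lay between 30.9 and 94.5 CPM, a 3.06-fold range with a coefficient of variation of 0.290. In T399F, T420F and T448M no Stat2 count was found, and T425M held 1 count, where the median level over rats predicted 52.1 to 400.0 counts. A pattern of this kind was common in these tables: of 5022 genes with a median between 20 and 100 CPM, 67.1% had at least 1 library at 3 counts or fewer where at least 30 were predicted, and 11.9% had 4 or more. In those 4 libraries the upper limit of a count of 0, set at 3 counts, is 0.400 to 3.07 CPM, for counting error only.

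Irf9, the DNA-binding partner of STAT2 in ISGF3, was measured in every rat and ranged from 25.1 CPM (T398F) to 231 CPM (T425M). Irf1, which is induced by interferon-gamma among other signals, had no count in T425M and lay between 18.1 and 169 CPM in the other 27 rats. Irf7, which amplifies the type I response, had more than 3 counts in 13 rats, where it reached 1.93 to 74.0 CPM, and no count in 14. The highest Irf7 level belonged to T398F, the rat with the lowest Irf9 and the lowest Ifit2.

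Among the stimulated genes, Ifit2 ranged from 11.8 CPM (T398F) to 206 CPM (T424M) and Bst2 from 14.2 CPM (T404F) to 150.3 CPM (T430F). Ifit2 belongs to a family of related genes, so counts assigned through mouse transcripts may be shared with its relatives. Isg15 had more than 3 counts in 16 rats, with 57.2 CPM in T348M as the highest level, and no count in 7. Dtx3l ranged from 0 (T448M) to 67.6 CPM (T353M), and its partner Parp9 from 25.5 CPM (T407M) to 178 CPM (T410F). Parp9 was the steadiest of the members over the normal rats. Its coefficient of variation there was 0.459, and 10.97% of the genes between 20 and 100 CPM had a lower one, whereas that of Irf7 was 1.85.

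**Figure D1:**
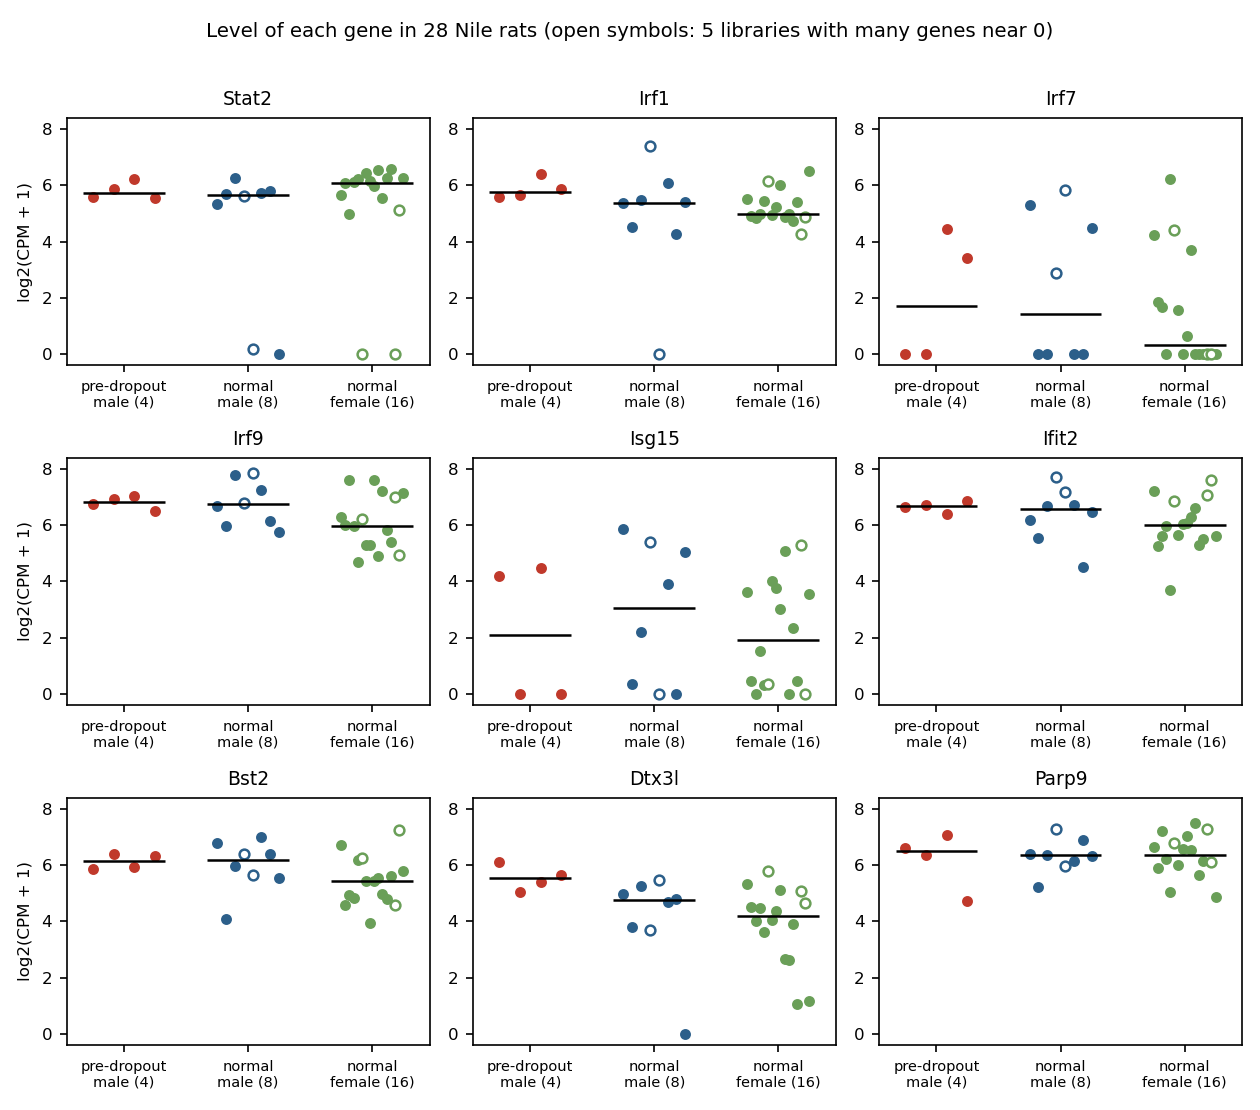
Level of each of the 9 genes in 28 rats, as log2(CPM + 1) on the vertical axis, by density group and sex with the number of rats in brackets. Each point is 1 rat, the bar is the group median, and open symbols are the 5 libraries in which over 20% of predicted genes were near 0. The 4 pre-dropout rats lie within the spread of the normal rats except T353M for Dtx3l (67.6 CPM) and T407M for Parp9 (25.5 CPM).

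The study compared pre-dropout with normal vessels to find genes that change just before capillaries are lost. It called a set of genes, all of them higher in pre-dropout vessels, from reads mapped to the Nile rat genome with the tool EBSeq. Neither those genome-mapped values nor that tool was used here. None of the 9 genes was called between the 4 pre-dropout and 24 normal rats (edgeR quasi-likelihood test, Benjamini-Hochberg adjusted p under 0.05 and more than 2-fold). Neither was any other gene, so that the share of 13800 tested genes called was 0%. At an unadjusted p under 0.05 stood 394 genes (27 higher, 367 lower), of which 0 were members. DESeq2 called 5 genes lower, no member among them. The median log2 fold change of the 9 genes was 0.21, and that of all genes was -0.13.

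Dtx3l had the largest difference. It was measured at 32.1, 41.4, 49.4 and 67.6 CPM in the pre-dropout rats, whereas the normal rats ranged from 0 to 53.8 CPM with a median of 20.4. The normal median was exceeded in all 4 pre-dropout rats, and the highest normal rat in 1 of them, T353M. The median of the 8 normal males was 25.8 CPM. For Dtx3l and the members below, the share of all genes with such a count was not computed. The log2 fold change was 1.18 ± 0.72 (SE), with an approximate 95% interval of -0.23 to 2.59 and an edgeR adjusted p of 1.0 (unadjusted p = 0.108). Without the 5 libraries it was 1.46 ± 0.65 (edgeR unadjusted p = 0.0330, adjusted p = 1.0). Within the 12 males it was 0.998 ± 0.920. Over all alternatives, the Dtx3l value stayed between 0.98 and 1.57, and the adjusted p of edgeR, DESeq2 or limma was at least 0.733 for every member. Parp9, whose protein binds DTX3L, showed no such difference. Its pre-dropout levels were 25.5, 82.0, 97.1 and 134 CPM against a normal median of 80.2 (range 28.2 to 178), and its log2 fold change was -0.06 ± 0.42.

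The regulators overlapped broadly between the groups. Irf1 was measured at 46.9, 49.7, 56.7 and 83.5 CPM in the pre-dropout rats and from 0 to 169 CPM with a median of 33.7 in the normal rats. Irf9 was measured at 88.8, 108, 120 and 132 CPM against a normal range of 25.1 to 231 and a median of 71.8. All 4 pre-dropout rats exceeded the normal median for both genes. The median of the 8 normal males alone was 40.7 CPM for Irf1 and 105.7 CPM for Irf9. The log2 fold change was 0.45 ± 0.63 for Irf1 and 0.21 ± 0.47 for Irf9. For Stat2 the pre-dropout rats gave 45.5, 46.4, 57.5 and 73.3 CPM against a normal median of 53.3 (range 0 to 94.5), and the log2 fold change was 0.10 ± 0.85. Irf7 had no count in 2 pre-dropout rats and 9.53 and 20.6 CPM in the others, within the normal range.

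For the stimulated genes the picture was the same. Ifit2 was measured at 82.6, 99.25, 104 and 116 CPM in the pre-dropout rats and had a normal median of 69.7 (range 11.8 to 206). Bst2 was measured at 57.1, 59.9, 79.2 and 83.4 CPM and had a normal median of 46.8 (range 14.2 to 150.3). Both genes exceeded their normal median in each of the 4, and in none of them the highest normal rat. The median of the 8 normal males alone was 94.8 CPM for Ifit2 and 72.2 CPM for Bst2. The log2 fold change was 0.26 ± 0.46 for Ifit2 and 0.28 ± 0.49 for Bst2. Isg15 had no count in 2 pre-dropout rats and 17.4 and 21.2 CPM in the other 2, and its interval of -3.28 to 2.69 was too wide to place it.

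Normal males stood above normal females for several of these genes, and the comparison of density groups changed with sex in the model. With sex as a covariate the sign of Bst2 became -0.04 and that of Irf9 -0.15, and 4 of the 9 genes were above 0 in place of 6. Within males only, 3 of 9 were above 0. Dtx3l and Irf1 were above 0 in both fits. The 12 endothelial markers moved in the same direction as Irf9 and Ifit2 in the fit without covariates: 12 of 12 had a log2 fold change above 0 in pre-dropout rats (median 0.22), and 0 of them was called. The 8 pericyte markers went the other way, with 0 of 8 above 0 (median -0.43). The part of vessel cell content in the members' values was not tested.

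**Figure D2:**
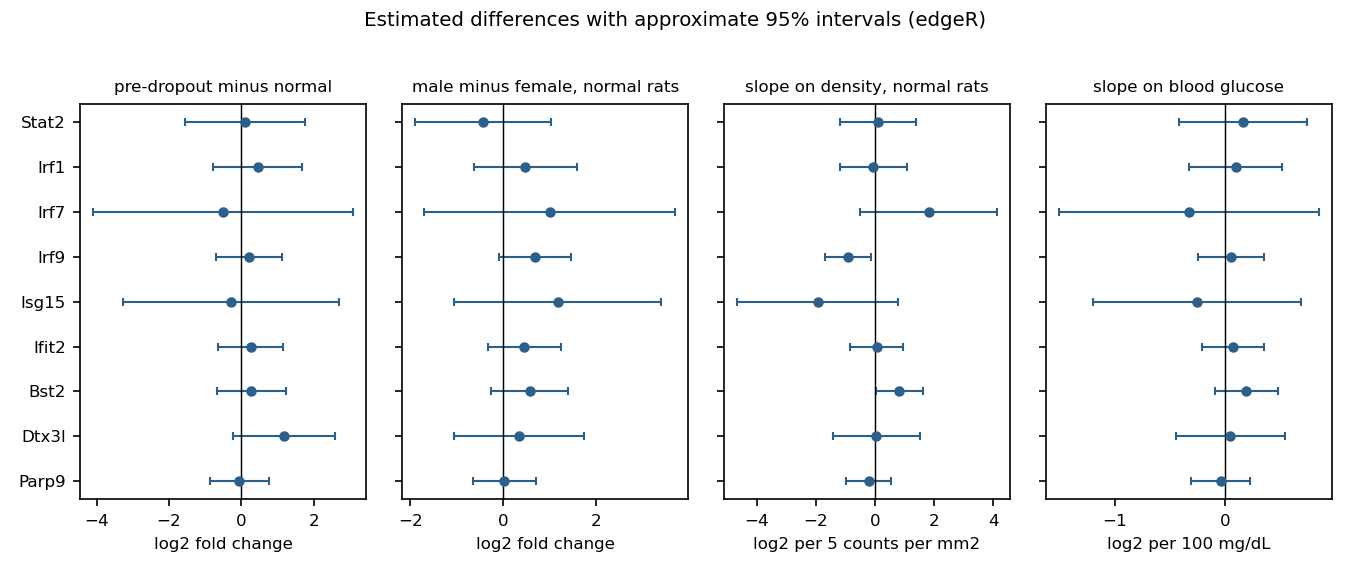
Estimated difference or slope of each of the 9 genes (horizontal axes, on the log2 scale in the unit printed below each panel) with approximate 95% intervals, from edgeR, for 4 comparisons. The interval covers 0 for all but Irf9 (-0.90) and Bst2 (0.82) in the slope on density, and neither passed the adjusted threshold.

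The male-female comparison within the 24 normal rats describes that imbalance, and it uses the same normal rats as the comparisons of density group, glucose and density. Of 12162 genes tested, 3 (0.0247%) were called, and 0 of the 9 members. In this comparison 8 of the 9 members were higher in males on average and Stat2 was lower, and under DESeq2 size factors or upper-quartile scaling Parp9 also turned below 0. The median log2 fold change was 0.47 for the members and -0.04 for all genes. Without the 5 libraries 5 of 8 members tested were higher in males, and in limma on log2 of TPM plus 1 it was 6 of 9. The largest difference relative to its error was that of Irf9, the ISGF3 subunit. Its median was 105.7 CPM in 8 normal males (53.2 to 231) and 62.1 CPM in 16 normal females (25.1 to 194), and the ranges overlapped over most of their length. The log2 fold change was 0.68 ± 0.39 (edgeR adjusted p = 0.995, unadjusted p = 0.0911), and 0.39 ± 0.44 without the 5 libraries. Bst2 had a median of 72.2 CPM in males and 42.2 CPM in females, a log2 difference of 0.57 ± 0.42, and 0.80 ± 0.40 without the 5 libraries (edgeR unadjusted p = 0.0580). All 12 endothelial markers were likewise above 0 (median log2 0.36), as were 8 of 8 pericyte markers (0.51), 4 of 4 smooth muscle markers (0.36) and 3 of 3 erythrocyte markers (0.75). None of these was called, and their part in the members' values was not tested.

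Blood glucose, the second label, gave no call for any gene either (0% of 13800 genes, edgeR with sex as a covariate). At an unadjusted p under 0.05 stood 525 genes, of which 0 were members, and DESeq2 called 21 genes, none of them a member. Glucose was above 200 mg/dL in 5 rats, 2 of them in the pre-dropout group. In these 5 rats Bst2 was measured between 16 and 128 CPM with a median of 83.4, and in the other 23 between 14.2 and 150.3 CPM with a median of 47.6. The highest of the 5 was T446M with a glucose of 422 mg/dL and the lowest T370M with 226 mg/dL, so the 5 rats spanned almost the whole range. The Bst2 slope was 0.19 ± 0.14 log2 units per 100 mg/dL (edgeR adjusted p = 1.0). For Irf1, Irf9, Ifit2, Bst2 and Dtx3l 4 of the 5 rats exceeded the median of the others, and T370M was the exception for each. The share of all genes with such a count was not computed. T370M had the lowest mean of the standardised members of all rats (-0.740). It was among the 7 lowest rats for 5 of 9 members, and among the 7 highest for none. The slopes of the other members lay between -0.33 (Irf7) and 0.16 (Stat2), each with an interval that covers 0.

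Density within the normal range was compared over the 24 normal rats, again with sex as a covariate, and 0% of 13677 genes were called (153 at an unadjusted p under 0.05 in edgeR, and 0 called by DESeq2). Irf9 had the smallest p of the members, with a slope of -0.90 ± 0.39 log2 units per 5 counts per mm2 (edgeR unadjusted p = 0.0281, adjusted p = 1.0). Of the rats with the lowest densities, T411M (5.90 counts per mm2) had 219 CPM and T445F (5.90) had 141 CPM. Next in density, T393F (6.03) had 63.1 CPM, T401F (6.29) had 38.1 CPM and T409F (6.68) had 28.9 CPM. At the upper end of the range T398F (14.5 counts per mm2) had 25.1 CPM and T370M (12.6) had 61.6 CPM. Irf9 lay below 30 CPM in T409F, in T430F (11.5 counts per mm2, 29.8 CPM) and in T398F. Without the 5 libraries the slope was -0.73 ± 0.39. Bst2 went the other way, with 0.82 ± 0.41 (edgeR unadjusted p = 0.0515, adjusted p = 1.0), and 0.50 ± 0.35 without the 5 libraries. Markers of several cell types had slopes mostly of 1 sign, and 0 of them was called. Of the 12 endothelial markers 11 had a slope below 0 (median -0.28, all genes 0.09), as had 8 of 8 pericyte markers (median -0.28). Of the rod photoreceptor markers 9 of 9 had a slope above 0 (median 1.27), and of the markers of Müller glia and astrocytes 7 of 8 (median 0.49). Their part in the slopes of Irf9 and Bst2 was not tested. The 7 other members lay between -1.94 (Isg15) and 1.81 (Irf7), with intervals that cover 0.

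The other genes of the pathway were read from lists of receptors, kinases and STATs (9 genes tested), other interferon regulatory factors (7), nucleic acid sensors (10), other interferon-stimulated genes (42), antigen presentation (9) and negative regulators (8). In each of these 6 lists and each of the 4 comparisons, 0 genes were called. In pre-dropout against normal rats 24 of the 42 other stimulated genes were above 0, with a median log2 fold change of 0.06, and 19 of 42 with sex as a covariate. For antigen presentation 7 of 9 were above 0 (median 0.28), and 4 of 9 with sex as a covariate (median -0.025). Psmb8, a subunit of the immunoproteasome, was measured at 75.5 ± 53.8 CPM (SD, n = 4) in pre-dropout and 28.0 ± 29.98 CPM (n = 24) in normal rats, a log2 fold change of 1.42 ± 1.02 (edgeR adjusted p = 1.0). The ranges overlapped, with 29.9 to 153 CPM in pre-dropout and 0 to 86.5 CPM in normal rats. Psmb9, another subunit, went the other way with -3.13 ± 2.29 and was at 0 TPM in the median rat.

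Of the receptor list, Ifnar2, a chain of the type I interferon receptor, had a log2 fold change of 0.44 ± 0.43, and Tyk2, a kinase bound to that receptor, had -2.43 ± 1.51. Among regulatory factors the smallest p-values belonged to Irf2bp2 (-0.66 ± 0.52) and Irf2 (0.30 ± 0.54), and among sensors to Tmem173, which encodes STING (-1.18 ± 1.82), and Tlr3, a receptor for double-stranded RNA (-0.58 ± 1.23). Among stimulated genes they belonged to the chemokine Cxcl10 (-3.36 ± 2.30) and to Ifitm1 (-2.45 ± 2.22), and both had a median below 1 TPM. Among negative regulators they belonged to the phosphatase gene Ptpn6 (-0.81 ± 1.22) and to Socs3 (-1.11 ± 1.69). All of these had an edgeR adjusted p of 1.0. In males against females of the normal group 32 of 41 other stimulated genes were above 0 (median log2 0.55, all genes -0.04), 28 of 41 with DESeq2 size factors or upper-quartile scaling, 27 of 41 without the 5 libraries and 21 of 41 in limma on log2 of TPM plus 1.

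The 9 genes did not rise and fall as 1 block from rat to rat. Over the 36 pairs, Pearson's r of log2 CPM had a median of 0.0377, and 23 pairs (63.9%) were above 0. All pairs of tested genes had a median r of 0.107, and 64.8% were above 0. Values of r between genes share library, depth and scaling. No pair of members passed the adjusted threshold in limma, where each gene was regressed on each member and p adjusted over 13799 genes (smallest adjusted p = 0.0997). Of the 36 pairs, 1 had a permutation p of r and 5 a permutation p of Spearman's rho under 0.05 before adjustment.

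**Figure D3:**
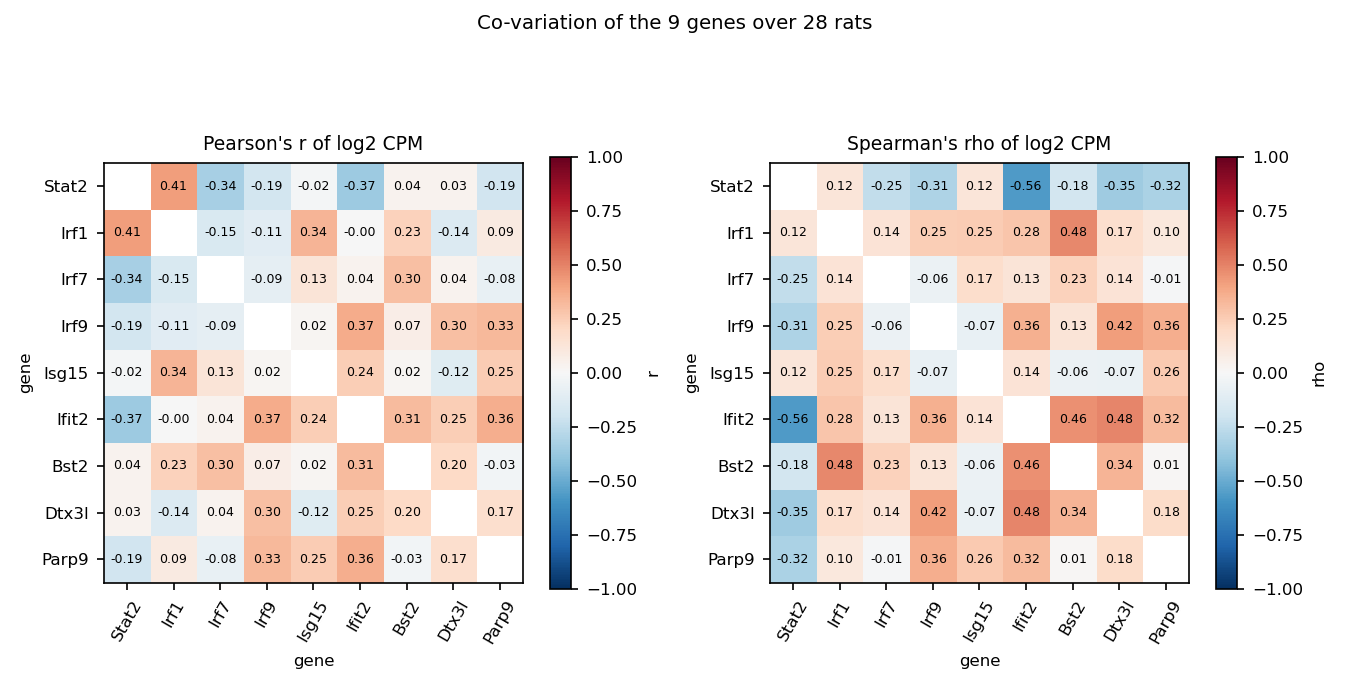
Pearson's r (left) and Spearman's rho (right) of log2 CPM between the 9 genes over 28 rats, with genes on both axes and color from -1 to 1. The pairs of Stat2 with Ifit2 (r = -0.366, rho = -0.565) and with Irf1 (r = 0.414, rho = 0.124) are the extremes of r.

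Stat2 and Irf9, which act in the same complex, gave no correlation past the threshold (r = -0.186, permutation p = 0.350, rho = -0.305, p = 0.115, and r = -0.194 without the 2 rats farthest from the Stat2 median). Dtx3l and Parp9 gave r = 0.167 (permutation p = 0.398, rho = 0.182, p = 0.350, r = 0.221 without the 2 farthest). Neither pair of protein partners thus showed co-variation of RNA that could be told from 0. The limma adjusted p was at least 0.484 for both pairs in either order.

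The highest r of all pairs was that of Stat2 and Irf1, 0.414 (permutation p = 0.0678), but rho was 0.124 (p = 0.527), and among the 24 rats with more than 3 counts of both r was 0.0348. Of the 4 rats with 3 or fewer Stat2 counts only T425M was near 0 for both genes. Irf1 lay at 70.8 CPM in T399F, 40.9 CPM in T448M and 18.1 CPM in T420F. Without the 2 rats farthest from the Stat2 median r of Stat2 and Irf1 was 0.584 (called by limma). T399F, T420F and T448M were tied at 0 Stat2 counts, so the choice of 2 among them was arbitrary. The same choice applies to Stat2 and Irf9 above. The lowest was that of Stat2 and Ifit2, with r = -0.366 (p = 0.0566) and rho = -0.565 (p = 0.00253). Leaving out the 4 rats with 3 or fewer Stat2 counts gave r = -0.405 and rho = -0.455, and leaving out the 5 libraries gave r = -0.177 and rho = -0.366. Stat2 moved with the number of genes detected in a library (r = 0.586, permutation p = 0.00114, rho = 0.700, r = 0.602 without the 2 farthest). For Ifit2 this relation was r = -0.457 (permutation p = 0.0140, rho = -0.568, r = -0.433). Adjusted over the 18 relations computed with depth and detected genes, the permutation p of r was 0.0205 for Stat2 and 0.126 for Ifit2. With library size and detected genes as covariates, r of Stat2 and Ifit2 was -0.0617.

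The other pairs described here were chosen after their values were seen. Irf9 and Ifit2 gave r = 0.367 (permutation p = 0.0545, rho = 0.357, p = 0.0640). This pair gave r = 0.227 without the 2 rats farthest from the Irf9 median and r = 0.4927 without the 5 libraries. Ifit2 and Dtx3l gave rho = 0.484 (permutation p = 0.0101) with r = 0.247 (p = 0.202). Ifit2 and Bst2 gave rho = 0.459 (permutation p = 0.0144) with r = 0.313 (p = 0.104), and r = 0.613 without the 2 rats farthest from the Ifit2 median, where limma called the pair. Irf9 and Dtx3l gave rho = 0.418 (permutation p = 0.0276) with r = 0.303 (p = 0.117). Irf1 and Bst2 gave rho = 0.482 (permutation p = 0.0108) with r = 0.229 (p = 0.252). The limma adjusted p of these pairs was at least 0.166.

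**Figure D4:**
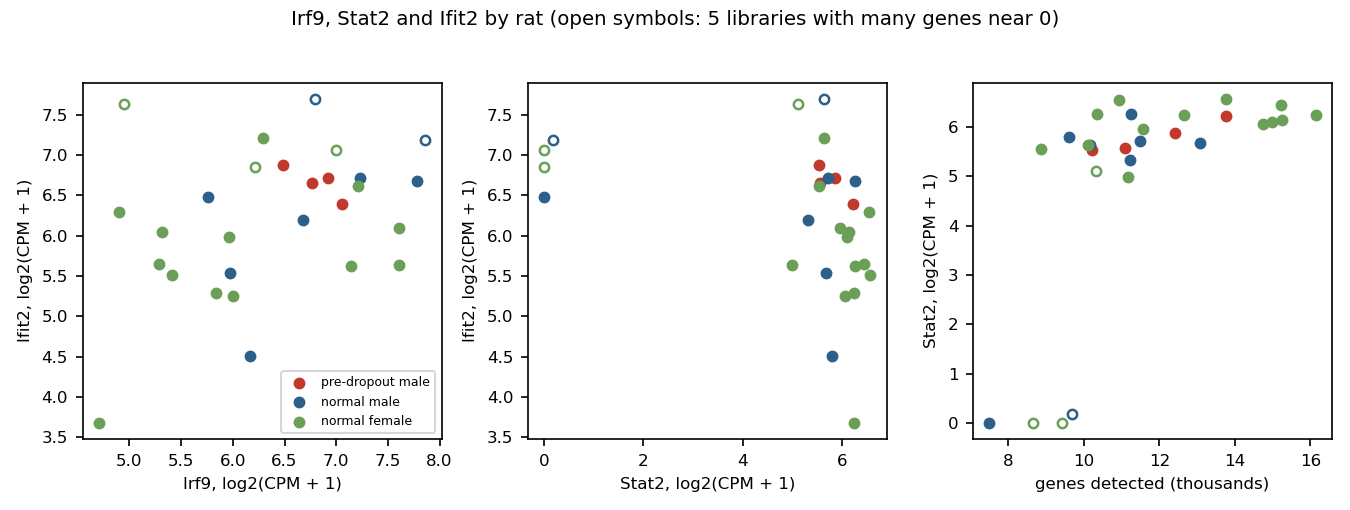
Left, Ifit2 against Irf9, middle, Ifit2 against Stat2, and right, Stat2 against the number of detected genes, with gene levels as log2(CPM + 1) and 1 point per rat, colored by density group and sex. Open symbols are the 5 libraries with many genes near 0, and the 4 rats at the foot of the right panel are those with 3 or fewer Stat2 counts.

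Single rats were mosaics of high and low members. T424M had the highest Irf1 and Ifit2 and held 5 members among the 7 highest of the 28 rats, and its mean standardised level was the highest of all (0.866). It is 1 of the 5 libraries with many genes near 0. T391M of the pre-dropout group also held 5 members among the 7 highest and none among the 7 lowest. T425M had the highest Irf9, with no Irf1 and 1 count of Stat2, so that it was among the 7 highest rats for 4 members and among the 7 lowest for 4. In 4 rats (T370M, T393F, T397F and T404F) no member was among the 7 highest.

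Some members shared their pattern with many other genes. The share of 13799 tested genes that rose with a member (limma adjusted p under 0.05, positive slope) was 13.2% for Stat2, 4.34% for Irf1, 3.2% for Ifit2, 0.645% for Dtx3l and 0.536% for Irf9. It was 0% for Irf7, Isg15, Bst2 and Parp9. Genes with a negative slope numbered 1661 for Ifit2, against 441 with a positive one. For Irf9 they numbered 68 against 74, for Stat2 and Irf1 28 each, and for the other members 0. For Stat2 and Irf1 this rested on rats with 3 or fewer counts of the member: without them the number of genes with a positive slope fell from 1822 to 0 for Stat2 and from 599 to 0 for Irf1. For Dtx3l it fell from 89 to 4. Ifit2 and Irf9 had counts in every rat.

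The listed genes that rose with Ifit2 made up a smaller share of the stimulated genes than of the markers of endothelial cells and pericytes. Of 42 other stimulated genes, 25 (59.5%) had r above 0, against 26.3% of all tested genes. Limma called 5 of the 42 with a positive slope against the background of 3.2%. They were Parp14 (r = 0.657), Oas1a (0.546), Mx1 (0.540), Ifitm3 (0.500) and Ifit1 (0.473). It called 1 with a negative slope, Parp11 (-0.509). Of 9 genes of antigen presentation, Tap1 (r = 0.626), Tap2 (0.566) and B2m (0.446) were called, which transport and present peptides. Ifnar1, a chain of the interferon receptor, gave r = 0.643 and Tyk2 gave -0.535. Of the endothelial markers 8 of 12 were called, with Pecam1 at r = 0.714, Cdh5 at 0.677 and Cldn5 at 0.579, and of the pericyte markers 5 of 8, with Kcnj8 at 0.597. Of 6 smooth muscle markers 0 were called with a positive slope and 1, Tagln, with a negative one (list median r = 0.286). The median r with Ifit2 was 0.582 for the endothelial list, 0.492 for pericytes, 0.130 for the other stimulated genes and -0.198 for all tested genes. Ifit3, the neighbour in function, gave r = -0.0289.

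These calls depended on the libraries. Without the 5 libraries 241 genes rose with Ifit2, among them Ifitm3, Tap1, Pecam1, Vwf and Kcnj8 of these lists, and with library size and detected genes as covariates 35 genes, with 0 of the listed ones. Median r with Ifit2 was below 0 for markers of rod photoreceptors (-0.318, with Gnat1 and Pde6b called negative), of Müller glia and astrocytes (-0.300, with Slc1a3 and Dkk3) and of microglia and macrophages (-0.278, with Csf1r). Over all tested genes the median r was -0.198, and 1661 of 13799 genes were called negative. Of these markers only Slc1a3 was also called negative without the 5 libraries, and none was with library size and detected genes as covariates. The part of vessel purity in these values was not tested.

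For Irf9 over 28 rats, limma called 3 of the listed genes, Jak1 (r = 0.682), Vwf (0.631) and Cldn5 (0.582), against a background of 0.536%. None of the 42 other stimulated genes, 9 antigen presentation genes and 8 pericyte markers was called. Their median r with Irf9 was 0.188, 0.385 and 0.335. Jak1 encodes a kinase of the interferon receptor. Without the 5 libraries 286 genes (2.07%) rose with Irf9. They included 9 of 12 endothelial markers, 5 of 42 other stimulated genes (Ifit1, Ifitm1, Ifitm2, Oas1a and Parp12), the receptor genes Jak1 and Ifnar1, the transporter gene Tap1 and 2 of 3 erythrocyte markers (Hba-a2 and Hbb-bs, which encode globins). The median r of the erythrocyte list was 0.548 there and 0.365 over 28 rats, and the part of red cells in these values was not tested. The median r of the endothelial list was 0.531 over 28 rats and 0.609 over 23. With library size and detected genes as covariates 9 genes rose with Irf9, 0 of them in these lists, and with sex as a covariate over 28 rats 1 gene did, against 74 without covariates.

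**Figure D5:**
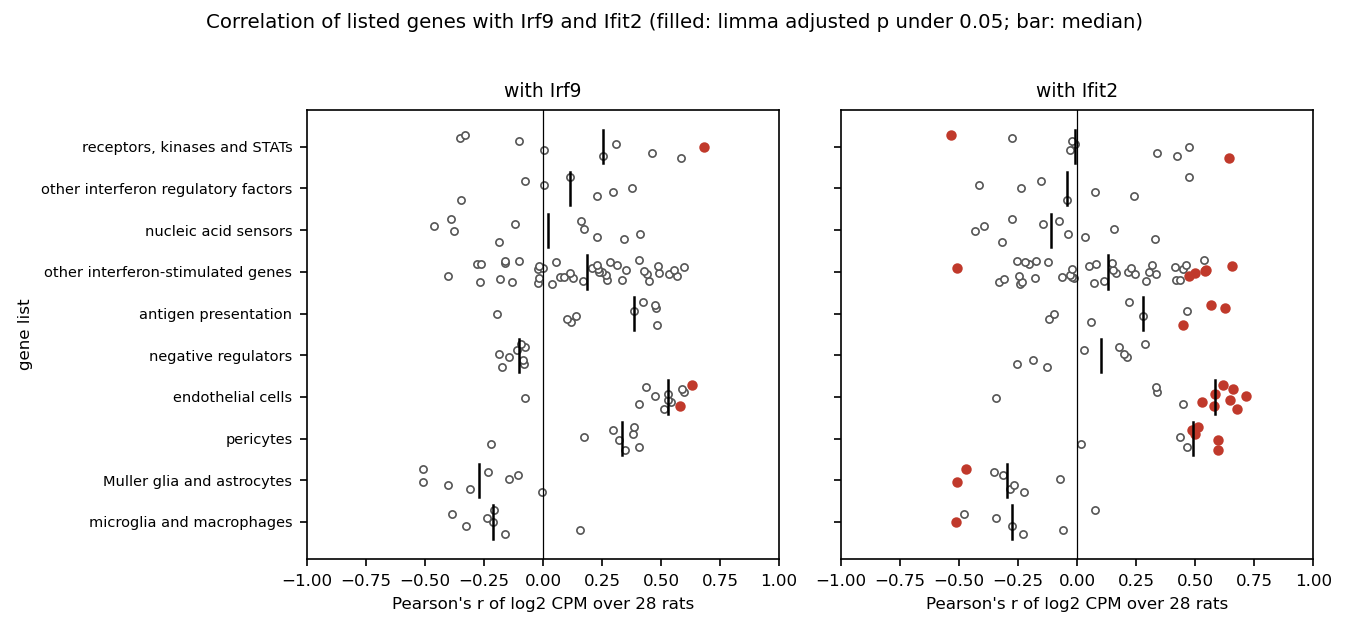
Pearson's r of log2 CPM over 28 rats (horizontal axis) between each listed gene (1 point each) and Irf9 (left) or Ifit2 (right), by gene list on the vertical axis. Filled points passed the limma adjusted threshold and the vertical bar is the list's median, which for endothelial cells is 0.531 with Irf9 and 0.582 with Ifit2.

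Among the listed genes, Irf1 rose with Irf2 (r = 0.805, rho = 0.0695), Trim21 (0.765, rho = 0.232), Stat3 (0.735, rho = 0.0460) and Eif2ak2 (0.712, rho = 0.355), all called by limma. Without the 5 libraries 0 genes rose with Irf1 in limma, and the r of Irf2 was -0.241. Dtx3l rose with Parp10 (r = 0.671), Nmi (0.663) and Psmb8 (0.613). These 3 were also called with library size and detected genes as covariates and without the 5 libraries, where r was 0.676, 0.704 and 0.718. They were not called without the 2 libraries under 1000000 counts, of which T448M had no Dtx3l count: 0 genes rose with Dtx3l there, 2 without the 2 rats farthest from its median and 0 in females. Over the alternatives the number ran from 0 to 450. PARP10 is a mono-ADP-ribosyltransferase, NMI an interferon-induced partner of STAT proteins.

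Over all tested genes, those most like a member by Pearson's r of log2 CPM in 28 rats were for the most part outside the lists. For Stat2 they were Sirt7 (0.955), Chka (0.940) and Spata7 (0.939), each at 0 counts in 2 or 3 rats. For Irf1 they were Ebp (0.913), Olfml2a (0.905) and Ctbs (0.904). For Ifit2 they were Ppp2cb (0.821), Clint1 (0.815) and Itgb1 (0.789), and for Irf9 Tmem184b (0.798), Lipa (0.796) and Arl15 (0.755). Lipa lies next to Ifit2 in the RefSeq annotation of the Nile rat. For Dtx3l they were Brox (0.775), Myof (0.758) and Cmah (0.756), for Parp9 Zbtb33 (0.698), Osmr (0.678) and Angptl4 (0.664), and for Bst2 Tssc4 (0.671), Nbl1 (0.637) and A4galt (0.631). The sparse genes had weaker neighbours, with Ccm2 (0.701), Dbt (0.642) and Cox5a (0.614) for Isg15 and Bdh2 (0.583), Scp2 (0.581) and Prdx4 (0.566) for Irf7.

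The mean of the standardised members was followed most closely by Mmrn2 (r = 0.720), which encodes an endothelial matrix protein, then by Maob, Sri, Peli1, A4galt, Stom, Leprot, Vim, Rpl4 and Usp42, the last with r = 0.683. Each member's own r with the mean of the other 8 was at most 0.363 (Ifit2), followed by Bst2 with 0.341, and it was below 0 for Stat2 (-0.162) and Irf7 (-0.0393).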

How the data were processed

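RNA-seq of 28 retinal vasculature libraries, 1 per Nile rat, was used. The authors deposited a table of expected counts (estimated counts with fractions, not scaled between libraries) and a table of TPM, whose columns each sum to 1000000. Both carry mouse symbols and mouse Ensembl identifiers. They were taken as the output of CRSP, which per the study's methods joins transcript assembly with mapping to mouse transcripts, so that divergence from mouse can lower or remove a gene's counts. Aligner and versions for these tables are not given in the sources used here. Genome-mapped values were not analysed here. No coordinates or sequences are given, and RefSeq gene names (all 9 members matched) served only for neighbours.

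Groups came from the density labels (17 to 18 counts per mm2 pre-dropout, below 16 normal), as in the study's methods, which also give the glucose unit. Counts were rounded, scaled by TMM and filtered with filterByExpr (minimum count 10), leaving 13800 genes. edgeR 4.0.16 in R 4.3.3 tested the density groups without covariates, the slopes per 100 mg/dL glucose and per 5 counts per mm2 with sex as covariate, and males against females among normal rats, with Benjamini-Hochberg adjustment over all tested genes. EBSeq, which the study used, was not installed. The common biological coefficient of variation was 1.32. Approximate 95% intervals are the estimate ± the normal quantile times the SE. Co-variation used limma 3.58.1 with trend on log2 CPM (prior count 2), and r and rho with 100000 permutations, two-sided, computed with SciPy 1.17.1 (NumPy 2.4.6, pandas 2.3.3, Python 3.11.15). DESeq2 1.42.0 was an alternative. The functions were tested on simulated data.

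Named genes are the 9 members, the called genes of each pathway list (where none was called, its 2 genes of lowest p), 3 genes most like each member and 10 most like their mean. Listed genes named for their co-variation were chosen after their values were seen. The members and lists were chosen with earlier results of these data known. Leaving out 5 sparse libraries, or rats with 3 or fewer counts of a member, was added after seeing the data. Library totals set a limit of 0.299 to 19.6 CPM for a count of 0, counting error only. The labels give separate rats but no batch. Results for 1 listed gene are not reported here.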

Additional observations from a re-analysis of the deposited data

Results flagged for a closer look

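Dixon's test at the 95% level was applied to each gene in 2 groups, the pre-dropout rats (4) and the males of the normal group (8), which gave 18 tests, where chance alone marks about 1 in 20. It marked 1. Irf1 was far higher in the normal male T424M (169 CPM) than in the other normal males, of which the next highest had 66.3 CPM and the lowest 0. The gap made up 0.608 of the range. T424M is the deepest library, with 10029207 counts, and in it 33.6% of the genes that should have given at least 30 counts gave 3 or fewer.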

How the results depend on the processing

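No member was called in any of the 4 comparisons under any alternative run, with a lowest adjusted p of 0.428 (males against females) over edgeR, DESeq2 and limma. The numbers of all genes called moved. Without a filter on low counts 72 genes were called for the density group, 152 for glucose and 45 for density within normal rats. With library size and detected genes as covariates these were 2, 1 and 8, and 5 for sex. DESeq2 called 5, 21 and, for sex, 34 genes. Glucose in normal rats alone gave 2, and sex gave 1 with a 1 CPM filter and 6 with limma on TPM. Without the 2 rats farthest from the member's median 2 pairs of members were called. For Stat2 and Irf1, those 2 rats were an arbitrary choice among 3 tied at 0 Stat2 counts. Of 862 alternative values 44 changed sign, none of a called result, and the cause was not tested.

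For pre-dropout against normal rats, the log2 values of the other sign were: within males Bst2 -0.050, Ifit2 -0.015 and Irf9 -0.18. With sex as covariate they were Bst2 -0.040 and Irf9 -0.15, and with glucose Parp9 0.016 and Irf7 0.015. With library size and detected genes they were Isg15 0.010, Parp9 0.043 and Irf7 0.80, in limma on TPM Irf7 0.20, and without the 5 sparse libraries Parp9 0.090 and Stat2 -0.084. Leaving out each pre-dropout rat in turn called 0 genes each time and gave 0.98 to 1.33 for Dtx3l, -1.03 to 0.11 for Isg15, -0.33 to 0.27 for Parp9 and -0.0019 to 0.25 for Stat2. For glucose they were Dtx3l -0.0042 without libraries under 1000000 counts, Irf9 -0.091 for rats above 200 mg/dL against the others, Parp9 0.0022 without the 5 libraries and Irf7 0.018 with library size and detected genes. For density they were Dtx3l -0.019 with sex and glucose and -0.049 without small libraries, Ifit2 -0.27 on TPM and -0.14 without the 5 libraries, Irf1 0.055 in all 28 rats, 0.23 on TPM and 0.077 without covariate, and Stat2 -0.017 without small libraries and -0.018 without the 5. For sex they were Irf1 -0.44 on TPM and -0.036 without the 5 libraries, Stat2 0.18 with library size and detected genes, and Parp9 -0.12 and -0.11 with DESeq2 size factors and test, -0.22 with library size and detected genes, -0.16 on TPM, -0.11 with upper-quartile scaling and -0.10 without the 5 libraries. Among pairs, r of Stat2 and Irf9 was 0.0224 in males and 0.0237 without the 5 libraries, of Dtx3l and Parp9 -0.0374 in males, and in females -0.0032 for Stat2 and Irf1 and -0.029 for Irf1 and Isg15. These values within 1 sex rest on scaling computed within it. With the scaling of all 28 rats they were 0.0473, -0.0536, 0.0456 and -0.0466 for Stat2 and Irf9, Dtx3l and Parp9, Stat2 and Irf1, and Irf1 and Isg15, so that Stat2 and Irf1 did not change sign.

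No paired analysis was possible because the labels give no replicate numbers that tie pre-dropout to normal rats. With 4 pre-dropout rats and a common biological coefficient of variation of 1.32, the intervals of Irf7 and Isg15 span several log2 units.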
